A study of Mus musculus with 6 samples.

Results

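The genes examined were 10 transcription factors known for keeping the identity of blood stem cells: Hlf, Meis1, Mecom, Gata2, Runx1, Tal1, Lmo2, Erg, Fli1 and Lyl1. They were chosen by name as a functional group, with earlier results of these data known. Counts and medians of the group therefore describe it and do not test it. Each factor matched 1 mouse Ensembl gene among the 49585 genes counted. All 10 passed the filter on low counts that kept 14785 genes for testing. RNA sequencing of sorted haematopoietic stem cells (HSCs) from bone marrow gave 6 libraries, 3 of cells with high surface CD38 (CD38-positive) and 3 of cells with low surface CD38 (CD38-negative). CD38 is a membrane enzyme that consumes NAD, and the study's title links its activity to HSC dormancy, a state of long quiescence. Every library came from untreated C57BL/6 mice aged 8 to 16 weeks, with the cells of 10 mice pooled. Cells of both populations carried Kit, Sca-1, CD150 and CD201 and lacked lineage markers, CD48 and CD34. The design sets the libraries against each other in 3 pairs, without saying if partners share their mice or if the 3 pools were separate cohorts. The p-values below therefore measure the spread between these pooled libraries, which may be technical.

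These factors bind DNA in overlapping combinations at the enhancers of stem and progenitor cells, often at each other's genes. Tal1, Lyl1, Lmo2, Gata2, Runx1, Erg and Fli1 are known as a group of 7 that occupy the same sites in blood progenitors. Hlf, Meis1 and Mecom are most abundant in the most immature cells and are switched off as cells commit to a lineage.

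The libraries held 16771180 to 18558610 counted reads, so 3 reads correspond to 0.166 to 0.183 CPM (counts divided by library size, scaled between libraries with TMM, a trimmed mean of gene ratios). This floor describes counting error alone, as reads that carry no molecular identifier may be copies of 1 molecule. All 13 genes of a stem cell marker list passed the filter, and Procr, which encodes CD201, was at 33.2 to 67.5 CPM. Genes of marker lists for other cell types were read as well. Eng, Pecam1 and Itga2b of these lists are also reported targets of the factors. Sums of the lists that hold them do not by themselves show RNA of other cells. The 14 granulocyte genes, led by S100a8 and Ngp, summed to 7.19% to 16.3% of scaled counts in CD38-positive and 8.12% to 12.98% in CD38-negative libraries. Of 12 endothelial genes, 10 passed the filter, led by Eng and Pecam1, and the list summed to 287 to 515 CPM in CD38-positive and 341 to 492 CPM in CD38-negative libraries. Of these 10, 8 had higher and 2 lower fitted values in CD38-positive cells, where 7404 of all 14785 tested genes were higher. In edgeR, 3 of the 8 and 0 of the 2 had an unadjusted p under 0.05, against 5.08% of all tested genes. None had an adjusted p under 0.05. Cdh5, an endothelial junction gene, was at 0 to 0.719 CPM. The part of endothelial cells in the results was not tested. The 8 mast cell and basophil genes, which include Gata2 and are led by Prss34 and Hdc, summed to 551 to 1045 CPM and 600 to 1156 CPM. The 9 megakaryocyte genes, led by Pf4 and Itga2b, summed to 97.9 to 270 CPM and 154 to 175 CPM. No gene of these lists was at 0 in all 6 libraries.

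A single library stood apart for the core factors. The CD38-negative library of pair 2 had the highest value of 8 of the 10, all but Tal1 and Lyl1, against 20.6% of all tested genes. Tal1 and Lyl1 were highest in the CD38-negative library of pair 1, so every factor peaked in a CD38-negative library, against 47.7% of all tested genes. The CD38-positive library of pair 1 had the lowest value of 5 factors. Stem cell markers outside the group moved with these libraries. The 11 markers that are not among the 10 factors summed to 750 CPM in the CD38-positive and 925 CPM in the CD38-negative library of pair 1, to 960 and 1944 CPM in pair 2, and to 1622 and 1373 CPM in pair 3. The summed CPM of the 10 factors divided by that sum was 0.870 and 0.844 in pair 1, 0.788 and 0.678 in pair 2, and 0.60 and 0.637 in pair 3. That ratio was higher in the CD38-positive library in pairs 1 and 2 and lower in pair 3, but it depends on the abundant, level factors. Without Lyl1 and Fli1, left out after their values were seen, it was 0.460 and 0.509, 0.457 and 0.474, and 0.397 and 0.442. That is lower in the CD38-positive library of each pair. However, Lyl1 and Fli1 had the highest log2 fold changes of the 10. Leaving them out favours a lower ratio in CD38-positive libraries, so nothing is read from this direction. A smaller share of stem cells in a library and less of these RNAs per cell cannot be told apart in bulk samples, and the part of composition in the results below was not tested.

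**Figure D1:**
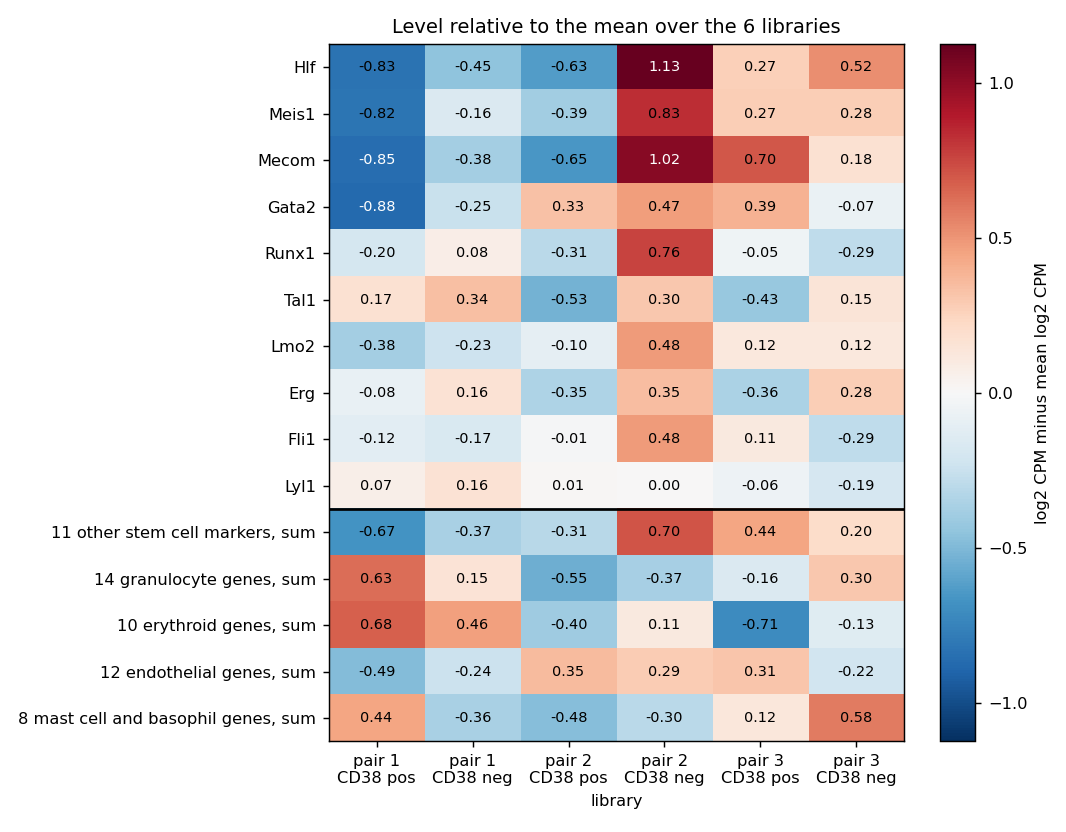
Level of each core factor (rows above the line) and the summed level of 5 marker lists (below it) in the 6 libraries, as log2 CPM minus the mean over the libraries. The CD38-negative library of pair 2 is high for Hlf (1.13), Mecom (1.02), Meis1 (0.83) and the other stem cell markers (0.70), while the CD38-positive library of pair 1 is low for all of them and high for granulocyte genes (0.63).

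The comparison asked which of these factors differ between CD38-positive and CD38-negative HSCs. Of the 10, 9 had lower fitted values in CD38-positive cells, with Lyl1 the exception, and the median log2 fold change was -0.45 against 0.00 over all tested genes. None of the 10 passed the threshold, an adjusted p of 0.05 by quasi-likelihood testing in edgeR with pairs as a block, where 2 of 14785 genes (0.0135%) did. At an unadjusted p under 0.05 there were 2 of the 10, Hlf and Meis1, both lower, against 5.08% of all tested genes in either direction and 2.61% lower. Hlf, Meis1, Tal1 and Erg, 4 of the 10, were lower in all 3 pairs, against 11.3% of all tested genes, and 0 were higher in all 3, against 13.2%. With unscaled library totals the 4 became 3, without Meis1, and with DESeq2 size factors they became 5, with Lmo2.

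The pairs did not contribute alike. In pair 1, 9 of the 10 were lower in CD38-positive cells (49.7% of all tested genes), in pair 2 also 9 (51.3%), and in pair 3 only 4 (47.4%). The median difference of the 10 was -0.27, -0.77 and 0.07 on the log2 scale in pairs 1, 2 and 3. Without pair 2 the count at an unadjusted p under 0.05 was 0 of 10 (3.49% of all genes in that fit), and without pair 3 it was 4 of 10, with Mecom and Runx1 added (6.03% of all genes). Without pair 1 it was 2 of 10, Hlf and Tal1 (8.06% of all genes), where Meis1 had an edgeR unadjusted p of 0.0726. Without the replicate block it was 1 of 10, Hlf (2.82% of all genes).

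**Figure D2:**
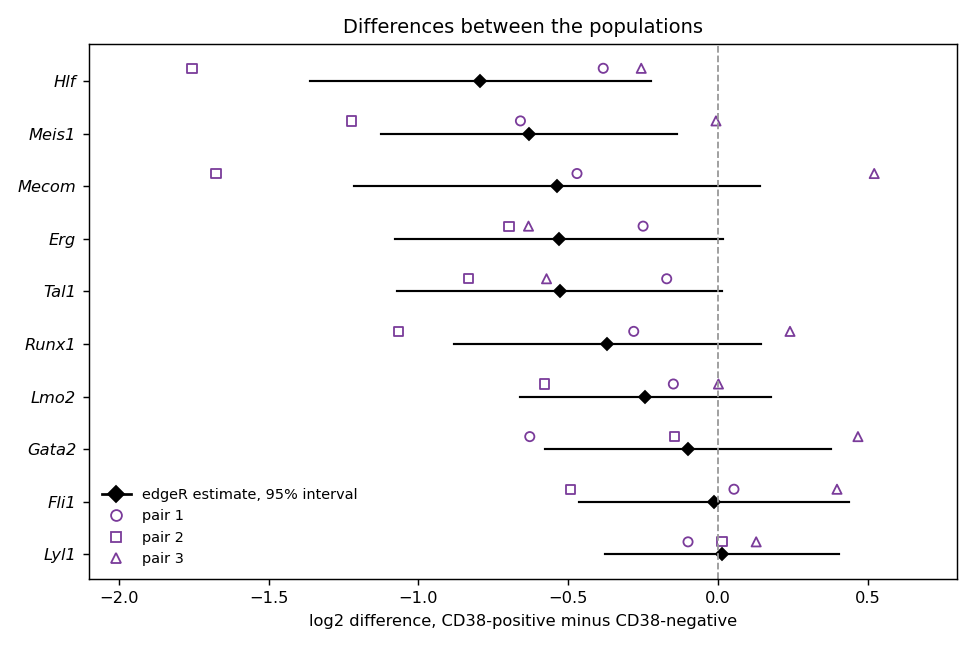
Log2 difference of each core factor, CD38-positive minus CD38-negative, as the edgeR estimate with its 95% interval (diamonds and lines) and as the difference of log2 CPM within each pair (open symbols). Intervals of Hlf and Meis1 alone lie below 0, and pair 2 gives the lowest difference for 8 of the 10 factors, all but Gata2 and Lyl1.

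Hlf (ENSMUSG00000003949, GRCm38 chr11:90336536-90390895, minus strand) encodes a bZIP factor of the proline and acidic amino acid-rich family, whose expression marks the most primitive blood cells. Its level was 37.1, 42.7 and 79.6 CPM in the CD38-positive libraries of pairs 1, 2 and 3, and 48.4, 144 and 95.1 CPM in their CD38-negative partners. The CD38-positive library was lower in each pair, but the populations overlapped, since the CD38-positive library of pair 3 was above the CD38-negative library of pair 1. Means were 53.1 ± 23.1 CPM (SD, n = 3) and 96.0 ± 48.0 CPM (SD, n = 3). The log2 fold change was -0.79 (SE 0.27, 95% interval -1.36 to -0.22), or 1.73-fold lower, with an edgeR unadjusted p of 0.00989 and an adjusted p of 0.925. Paired differences were -0.38, -1.76 and -0.26, largest in pair 2. Without pair 2 the log2 fold change was -0.33 (edgeR unadjusted p = 0.121).

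Meis1 (ENSMUSG00000020160, chr11:18879817-19018985, minus strand) encodes a homeodomain protein that binds DNA together with PBX and HOX proteins. It was at 105, 141 and 224 CPM in the CD38-positive libraries of pairs 1 to 3, and at 166, 329 and 225 CPM in the CD38-negative ones. Pair 3 was level, at a difference of -0.01, while pairs 1 and 2 had -0.66 and -1.22, and the populations overlapped. Means were 157 ± 61.1 CPM (SD, n = 3) and 240 ± 82.8 CPM (SD, n = 3). Its log2 fold change was -0.63 (SE 0.23, 95% interval -1.12 to -0.14; edgeR unadjusted p = 0.0162, adjusted p = 0.925). Without pair 2 it was -0.34.

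Genes that overlap Meis1 exons bear on its count. The antisense gene Gm16140 shares 896 exonic bases with it and had 124, 137 and 270 reads in CD38-positive libraries against 186, 306 and 338 in CD38-negative ones. Its total is 6.58% of that of Meis1, and it too was lower in all 3 pairs (log2 fold change -0.72, edgeR unadjusted p = 0.0137, adjusted p = 0.925). The strand setting of the counting is not given in the sources used here, so if it ignored strand, reads of the pair cannot be told apart where they overlap.

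Mecom (ENSMUSG00000027684, chr3:29951296-30548008, minus strand) encodes the zinc finger protein EVI1 and a longer form with a PR domain, both needed for HSC maintenance. It was at 32.9, 37.7 and 96.5 CPM in CD38-positive and 45.6, 121 and 67.2 CPM in CD38-negative libraries. The direction turned in pair 3, with differences of -0.47, -1.68 and 0.52. The log2 fold change was -0.54 (SE 0.32, 95% interval -1.22 to 0.14; edgeR unadjusted p = 0.112, adjusted p = 0.926). Without pair 2 it was 0.02, and without pair 3 it was -1.08 (edgeR adjusted p = 0.243).

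**Figure D3:**
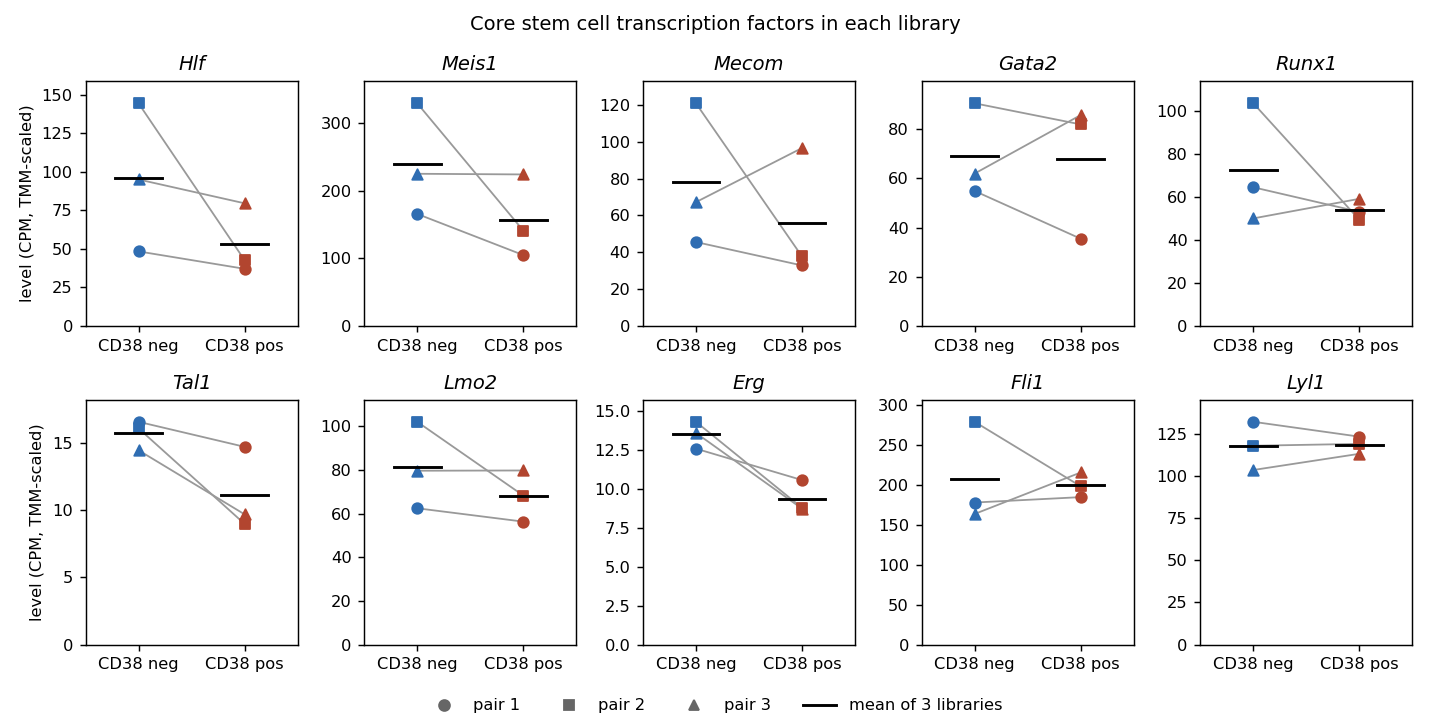
Level of each core factor in CPM, scaled between libraries, in the CD38-negative (blue) and CD38-positive (red) library of each pair; lines join a pair and black bars are means of 3 libraries. Erg is the factor whose populations do not overlap, with 8.72 to 10.6 CPM in CD38-positive and 12.6 to 14.3 CPM in CD38-negative libraries.

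Tal1 (ENSMUSG00000028717, chr4:115056426-115071755, plus strand) encodes the basic helix-loop-helix protein SCL, without which no blood forms. It was lowly expressed, at 14.7, 8.996 and 9.71 CPM in CD38-positive and 16.6, 16.1 and 14.5 CPM in CD38-negative libraries, from 159 to 290 reads. The CD38-negative values were close together, and the CD38-positive library of pair 1 alone reached into their range. Means were 11.2 ± 3.13 CPM (SD, n = 3) and 15.7 ± 1.11 CPM (SD, n = 3). The log2 fold change was -0.53 (SE 0.25, 95% interval -1.07 to 0.02; edgeR unadjusted p = 0.0560, adjusted p = 0.926), with paired differences of -0.17, -0.83 and -0.57. Erythroid cells express Tal1 too, and the 10 erythroid genes summed to 4681 to 12194 CPM in CD38-positive and 6966 to 10501 CPM in CD38-negative libraries, with 9 of 10 fitted values lower in CD38-positive cells; their part in the Tal1 value was not tested.

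Lyl1 (ENSMUSG00000034041, chr8:84701457-84704715, plus strand) encodes the closest relative of Tal1 and can stand in for it in adult HSCs. It was the steadiest of the 10, at 123, 119 and 113 CPM in CD38-positive and 132, 118 and 104 CPM in CD38-negative libraries. Highest and lowest library differed 1.28-fold, against 3.89-fold for Hlf. Its log2 fold change was 0.01 (SE 0.18), with a 95% interval of -0.38 to 0.41 (edgeR adjusted p = 0.993); it was -0.04 without pair 3 and also below 0 with unscaled library totals. Nfix lies on the other strand and shares 4 exonic bases with Lyl1.

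The balance of these relatives was compared within libraries. The log2 ratio of Tal1 to Lyl1 was lower in the CD38-positive library of each pair, with differences of -0.07, -0.85 and -0.70. Swapping populations within pairs in an exact permutation test (two-sided) gave p = 0.25, the smallest that 3 pairs allow. Within a library, this ratio does not depend on how libraries are scaled.

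Lmo2 (ENSMUSG00000032698, chr2:103957986-103981878, plus strand) encodes a LIM-only protein that bridges Tal1 and GATA factors through LDB1. It was at 56.3, 68.2 and 79.7 CPM in CD38-positive and 62.4, 102 and 79.6 CPM in CD38-negative libraries. The pair 3 libraries had a difference of 0.00 on the log2 scale, and the populations overlapped. Its log2 fold change was -0.24 (SE 0.20, 95% interval -0.66 to 0.18; edgeR adjusted p = 0.932), and it was -0.09 without pair 2.

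Gata2 (ENSMUSG00000015053, chr6:88193891-88207032, plus strand) encodes the GATA zinc finger factor of stem and early progenitor cells, which mast cells also express. It was at 35.5, 82.0 and 85.8 CPM in CD38-positive and 54.9, 90.6 and 62.0 CPM in CD38-negative libraries. Paired differences of -0.63, -0.14 and 0.47 ran in both directions. The summed mast cell and basophil list, which includes Gata2 itself, was at 1045, 551 and 840 CPM in the CD38-positive and 600, 624 and 1156 CPM in the CD38-negative libraries of pairs 1 to 3. The part of such cells in the Gata2 value was not tested. The log2 fold change was -0.10 (SE 0.22, 95% interval -0.58 to 0.38; edgeR adjusted p = 0.967), and it was 0.16 without pair 1.

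Runx1 (ENSMUSG00000022952, chr16:92601466-92826149, minus strand) encodes the DNA-binding subunit of core-binding factor. Its CD38-positive values lay close together at 53.1, 49.4 and 59.2 CPM, whereas the CD38-negative values were 64.5, 104 and 50.1 CPM. The spread of the latter came from pair 2, where the difference was -1.07, against -0.28 and 0.24 in pairs 1 and 3. The log2 fold change was -0.37 (SE 0.24, 95% interval -0.88 to 0.14; edgeR unadjusted p = 0.144, adjusted p = 0.929), and it was -0.03 without pair 2.

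Erg (ENSMUSG00000040732, chr16:95359169-95586593, minus strand) encodes an ETS factor required for HSC self-renewal. It was at 10.6, 8.77 and 8.72 CPM in CD38-positive and 12.6, 14.3 and 13.6 CPM in CD38-negative libraries, from 155 to 257 reads. Every CD38-positive library was below every CD38-negative one, which held for 1 of the 10 factors and for 6.53% of all tested genes in either direction. Means were 9.35 ± 1.04 CPM (SD, n = 3) and 13.5 ± 0.866 CPM (SD, n = 3). The log2 fold change was -0.53 (SE 0.26, 95% interval -1.08 to 0.02; edgeR unadjusted p = 0.0562, adjusted p = 0.926). Of the 4 factors lower in all pairs, Erg varied least with the pairs used, with -0.67, -0.46 and -0.48 when pair 1, 2 or 3 was left out.

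Fli1 (ENSMUSG00000016087, chr9:32422204-32542861, minus strand) encodes the ETS factor closest to Erg. It was at 185, 198 and 216 CPM in CD38-positive and 178, 279 and 164 CPM in CD38-negative libraries. Only the CD38-negative library of pair 2 stood out, and the log2 fold change was -0.01 (SE 0.21, 95% interval -0.46 to 0.44; edgeR adjusted p = 0.994). It was 0.21 without pair 2. The log2 ratio of Erg to Fli1 within a library was lower in CD38-positive cells in each pair, with differences of -0.30, -0.20 and -1.03 (two-sided exact permutation p = 0.25 within pairs).

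Levels of different genes were compared per kilobase of exon. Lyl1 (65.7 ± 5.34 CPM per kilobase, SD, n = 6) and Fli1 (58.3 ± 11.8) were the most abundant, and their ranges over the 6 libraries overlapped. Lmo2 followed at 34.5 ± 7.52, Meis1 at 18.8 ± 7.55, Gata2 at 12.7 ± 3.96 and Hlf at 11.2 ± 6.15. Mecom (5.37 ± 2.85), Runx1 (5.27 ± 1.71), Erg (3.29 ± 0.698) and Tal1 (3.07 ± 0.749) were lowest. Ranges of all neighbours in this order overlapped, those of Fli1 (from 46.9) and Lmo2 (up to 47.1) and those of Runx1 (from 4.11) and Erg (up to 4.12) by a narrow margin. Per length, Lyl1 was 21.4-fold above its relative Tal1, and Fli1 was 17.7-fold above Erg. The lengths count all annotated exons, so genes with long alternative ends, such as Mecom, come out lower than per transcript.

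**Figure D4:**
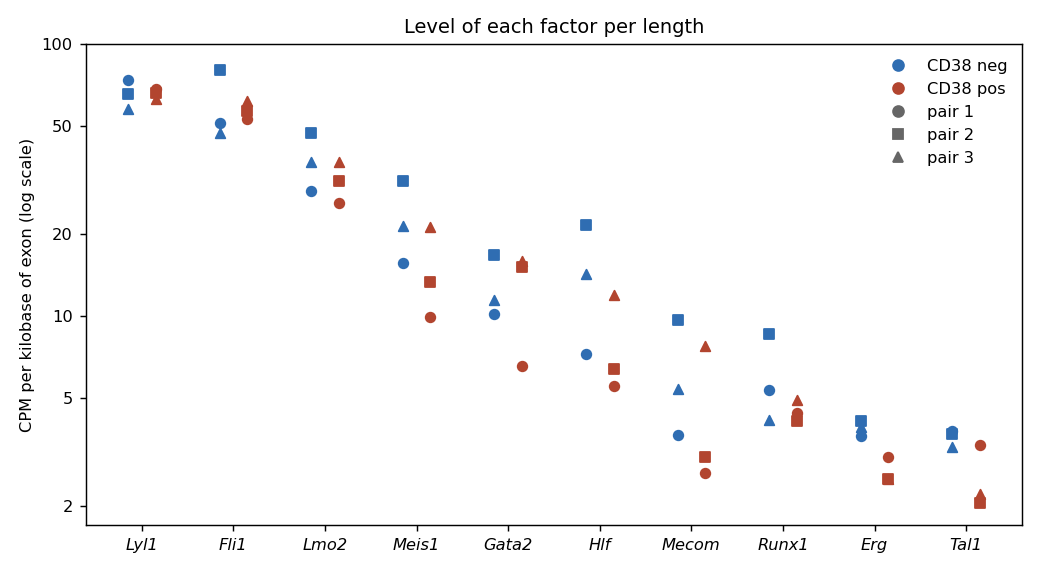
Level of each core factor per kilobase of annotated exon (log scale) in the 3 CD38-negative (blue) and 3 CD38-positive (red) libraries, ordered by the mean. The factors span from 65.7 for Lyl1 to 3.07 CPM per kilobase for Tal1, and Hlf, Mecom and Meis1 vary most between libraries.

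Upstream sequences are shown for the 4 factors that were lower in all 3 pairs and for Lyl1, which was level, to set their letters side by side. They are RefSeq windows on GRCm38.p6 of the 250 bases before an annotated start, which the table used held for 8 of the 10 factors, in 14 windows; Lmo2 and Fli1 had none. Capitals mark matches, on either strand, to 6 patterns that the factor families are known to bind. These were the E-box CAGNTG of Tal1 and Lyl1, the pattern AGATAA for GATA factors, TGTGGT for RUNX proteins, CCGGAA for ETS proteins, TGACAG for MEIS proteins and TTACGTAA for the family of Hlf. They lie at chr11:90390918-90391167 (Hlf, minus strand), chr11:19018986-19019219 (Meis1, minus strand), chr4:115056176-115056425 (Tal1, plus strand), chr16:95459349-95459598 (Erg, minus strand) and chr8:84701207-84701456 (Lyl1, plus strand). None of the bases shown is in an annotated exon, for which the 16 bases nearest the Meis1 start were left off. The Erg window is that of a start inside the gene and is the only 1 of its 3 windows with a match.
Hlf: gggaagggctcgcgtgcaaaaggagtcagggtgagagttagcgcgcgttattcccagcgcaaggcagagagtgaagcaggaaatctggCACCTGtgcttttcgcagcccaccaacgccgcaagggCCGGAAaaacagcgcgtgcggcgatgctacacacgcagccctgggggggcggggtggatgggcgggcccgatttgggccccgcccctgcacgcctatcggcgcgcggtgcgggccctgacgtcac
Meis1: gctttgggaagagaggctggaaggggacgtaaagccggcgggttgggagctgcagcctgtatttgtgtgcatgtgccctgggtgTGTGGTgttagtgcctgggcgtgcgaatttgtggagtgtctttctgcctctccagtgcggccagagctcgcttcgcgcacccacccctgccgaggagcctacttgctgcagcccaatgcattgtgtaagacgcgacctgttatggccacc
Tal1: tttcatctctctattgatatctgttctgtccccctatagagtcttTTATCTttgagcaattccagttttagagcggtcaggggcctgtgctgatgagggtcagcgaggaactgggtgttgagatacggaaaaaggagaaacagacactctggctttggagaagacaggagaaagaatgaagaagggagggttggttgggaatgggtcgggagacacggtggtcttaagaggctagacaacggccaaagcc
Erg: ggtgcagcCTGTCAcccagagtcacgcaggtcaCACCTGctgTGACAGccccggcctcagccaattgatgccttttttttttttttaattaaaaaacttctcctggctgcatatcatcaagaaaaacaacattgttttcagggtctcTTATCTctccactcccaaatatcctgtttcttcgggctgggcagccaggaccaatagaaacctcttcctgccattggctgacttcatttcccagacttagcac
Lyl1: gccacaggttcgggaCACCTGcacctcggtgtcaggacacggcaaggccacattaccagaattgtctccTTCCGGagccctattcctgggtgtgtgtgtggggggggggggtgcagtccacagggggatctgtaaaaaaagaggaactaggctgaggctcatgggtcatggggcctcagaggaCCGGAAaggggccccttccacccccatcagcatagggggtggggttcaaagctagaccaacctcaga

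The Hlf window holds an E-box match, 162 to 157 bases before the start, and an ETS match at 125 to 120. Meis1 has a RUNX match at 166 to 161, and an ETS match at 11 to 6 that falls in the bases left off. Tal1 has a GATA match at 205 to 200, and its other window, not shown, has no match. Erg has 4 matches, a pair of MEIS matches on opposite strands at 242 to 237 and 208 to 203, an E-box match between them at 217 to 212, and a GATA match at 103 to 98. Lyl1, the level factor, has an E-box match at 235 to 230 and ETS matches at 181 to 176 and 67 to 62. Among these 5 genes, E-box and ETS matches were thus present with and without a lower value. GATA, RUNX and MEIS matches were in lower factors only. For Tal1 and Erg the window shown is the one that holds a match, so nothing is read from this. Over all 14 windows of the factors, E-box matches were in 5 (44.8% of the 32851 windows in the table), ETS in 4 (12%), GATA in 2 (9.99%), MEIS in 2 (15.9%), RUNX in 1 (14%) and the Hlf family pattern in 0 (0.113%). A match describes letters in a short window, not a bound site.

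Genes for partner proteins of the factors showed no difference in RNA past the threshold. All 29 genes for members of their complexes were tested, 19 with lower and 10 with higher fitted values in CD38-positive cells, a median of -0.13 against 0.00 over all genes, and 0 with an unadjusted p under 0.05 against 5.08% of all genes. Ssbp2, which stabilises LDB1, was the most abundant but for Hdac1, a histone deacetylase (105 ± 27.0 against 138 ± 28.7 CPM, SD, n = 3 each; log2 fold change -0.41, edgeR adjusted p = 0.926). For Hdac1 the value was 0.21 (edgeR adjusted p = 0.936). Cbfa2t3, the ETO2 corepressor of Tal1 complexes, had -0.46 and was lower in all 3 pairs, at -0.20, -0.98 and -0.19. Ssbp3 and Pbx2, a partner of Meis1, had -0.43 and -0.65 and were likewise lower in each pair, Pbx2 from 33 to 82 reads. Of the 29, 6 were lower in all 3 pairs (20.7%, against 11.3% of all tested genes). Only 1 was higher in all 3, against 13.2% of all tested genes. Genes named for a small p tend to have the same direction in each pair.

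Relatives of the factors by family were 18 tested of 20, 11 lower and 7 higher, with a median of -0.13. An unadjusted p under 0.05 was reached by 2 (11.1% of those tested, against 5.08% of all genes), both higher in CD38-positive cells. Meis2, a relative of Meis1, was counted by 1 to 68 reads, at 1.68, 1.58 and 3.75 CPM in CD38-positive and 0.357, 1.22 and 0.0611 CPM in CD38-negative libraries (log2 fold change 2.23, SE 0.75, edgeR adjusted p = 0.925). The populations did not overlap for Meis2, nor for Runx2 and Elf1 below, which were lower in CD38-positive cells. That was 3 of the 18, against 6.53% of all tested genes in either direction. Nfil3, which binds the same sites as Hlf and represses them, was at 10.7, 40.5 and 25.3 CPM against 16.4, 13.2 and 10.6 CPM (log2 fold change 0.78, edgeR adjusted p = 0.926), with pair 1 in the opposite direction at -0.61. Runx2 had -0.57 and was lower in all 3 pairs, and Gata3 had -0.44 and was lower in 2 of them. The abundant ETS relatives Elf1 and Gabpa had -0.36 and -0.19, Elf1 with lower values in all 3 pairs. Of the 18, 2 were lower in all 3 pairs (11.1%, against 11.3% of all tested genes). Another 2 were higher in all 3 (11.1%, against 13.2%).

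Among 38 other stem cell regulators, 35 were tested, 22 lower and 13 higher, with pair medians of -0.17, -0.41 and 0.01. An unadjusted p under 0.05 was found for 4 (11.4% of those tested, against 5.08% of all genes), all lower (2.61% of all genes). Those 4 were among the 8 of the list that were lower in all 3 pairs (22.9%, against 11.3% of all genes). Etv6, an ETS repressor needed by adult HSCs, was at 66.7, 60.03 and 91.1 CPM in CD38-positive and 91.0, 145 and 98.2 CPM in CD38-negative libraries (log2 fold change -0.61, edgeR adjusted p = 0.925). Hmga2, a chromatin protein, had -0.78, Msi2, an RNA-binding regulator of self-renewal, -0.70, and Ikzf2, the Helios zinc finger factor, -0.63. In each of the 4 the largest paired difference was in pair 2, from -1.23 for Ikzf2 to -1.78 for Msi2. The abundant genes Mycn and Mllt3 had 0.11 and -0.13.

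Genes reported as targets of the factors, 32 of 32 tested, had 17 lower and 15 higher values and a median of -0.14. Of the 5 with an unadjusted p under 0.05 (15.6% of the list, against 5.08% of all genes), 3 were lower and 2 higher. Angpt1, a ligand of the Tek receptor, was at 205, 175 and 438 CPM in CD38-positive and 340, 518 and 401 CPM in CD38-negative libraries (log2 fold change -0.72, edgeR adjusted p = 0.925). Myct1 had -0.63 and was lower in all 3 pairs, while Kit, the receptor for stem cell factor, had -0.90 and was not lower in pair 3. Csf1r, the macrophage growth factor receptor, was higher in all 3 pairs (log2 fold change 0.68, edgeR adjusted p = 0.893). Of the 32, 5 were lower in all 3 pairs (15.6%, against 11.3% of all tested genes). In the other direction, 6 were higher in all 3 (18.75%, against 13.2%). Csf1r is also a monocyte marker and is itself 1 of the 8 genes of the monocyte and dendritic list, 7 of which had higher fitted values. The list summed to 2676 and 1470 CPM in the CD38-positive and CD38-negative library of pair 1, 1179 and 1143 CPM in pair 2, and 1168 and 1204 CPM in pair 3. The sum was thus high in the CD38-positive library of pair 1 and close to level in pairs 2 and 3, but its genes differed. Ly6c2, the highest in mean CPM, was lower in CD38-positive libraries there, at 663 against 696 CPM in pair 2 and 674 against 849 CPM in pair 3. F13a1, the next, was higher in them, at 294 against 272 CPM and 304 against 204 CPM. The part of such cells in the Csf1r value was not tested. The erythroid and megakaryocyte factor Nfe2 had -0.16.

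Lineage factors, which direct cells away from the stem state, had 9 higher and 7 lower of 16 tested, with a median of 0.04. Irf8, the factor of monocyte and dendritic cells, had the smallest p of the list (log2 fold change 0.87, SE 0.22, edgeR unadjusted p = 0.00151, adjusted p = 0.695). It was at 171, 254 and 110 CPM in CD38-positive and 137, 94.96 and 59.9 CPM in CD38-negative libraries, higher in each pair. Of the 16, 2 were higher in all 3 pairs (12.5%, against 13.2% of all tested genes). In the other direction, 3 were lower in all 3 (18.75%, against 11.3%). Cebpe, a factor of late granulocytes, had -0.46 (edgeR unadjusted p = 0.0490, adjusted p = 0.926), Mitf, a mast cell factor, -0.93 and Klf1, the erythroid factor, -0.43. Id2, an inhibitor of basic helix-loop-helix proteins, had 0.23. No gene of these lists passed an adjusted p of 0.05 in edgeR. The lists share genes with each other, so their counts are not independent.

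**Figure D5:**
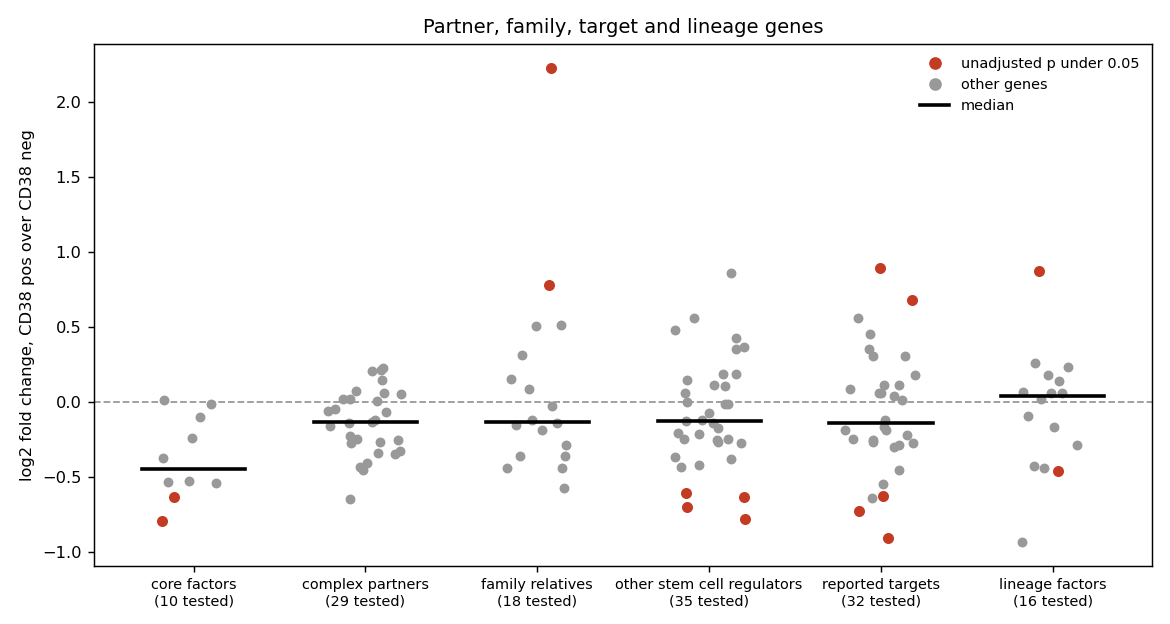
Log2 fold change, CD38-positive over CD38-negative, of each tested gene in the core group and in 5 related lists; red points have an unadjusted p under 0.05 and bars are medians. The core factors have the lowest median, -0.45, and the related lists lie between -0.14 and 0.04.

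The genes whose profile over the 6 libraries lay closest to that of Hlf were Trp53i11, Irgm2 and Slc6a15. Their centred log2 CPM differed from that of Hlf by a root mean square of 0.12, 0.12 and 0.13, where Hlf itself had an SD of 0.76. For Meis1 they were Trim7, Avl9 and Pglyrp2, at 0.07, 0.09 and 0.11. Among the factors, Hlf and Meis1 were each other's nearest, at 0.22, and Mecom was nearest to Hlf, at 0.23. Tal1 and Erg were also mutually nearest, at 0.16. With 14785 genes and 6 libraries, profiles this close arise easily, and nothing is read from them.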

How the data were processed

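Bulk RNA sequencing of 6 libraries was analysed, 3 per CD38 population. The authors deposited a table per library of raw read counts by Ensembl identifier. The submitters' processing notes name cutadapt, STAR, HTSeq 0.6.1p1 and GRCm38 (mm10), without settings; the annotation release is not given in the sources used here. Symbols matched 49326 of 49585 identifiers. Coordinates and exon lengths came from GENCODE M21 (GRCm38) and upstream windows from RefSeq (GRCm38.p6).

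In R 4.3.3, genes were kept with filterByExpr, scaled by TMM and tested with edgeR 4.0.16 (quasi-likelihood F-test, pair plus population, Benjamini-Hochberg over all 14785 genes, threshold 0.05). CPM used TMM-scaled library sizes, log2 CPM a prior count of 2. The procedure was tested on simulated data. The pairs come from the series' design text. After centring on the population means, partners correlated at 0.34, 0.12 and 0.24 in pairs 1, 2 and 3. The same CD38-positive libraries correlated with CD38-negative libraries of other pairs at -0.26 to -0.05, -0.20 to 0.08 and -0.42 to 0.15. Centring makes these values depend on each other, so they do not test the pairing. Libraries of a population differed beyond counting noise (chi-square per degree of freedom 52.6 to 119).

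The members and lists were chosen with earlier results of these data known, so lists get counts and medians, with no test. Named were all 10 factors, per list the 4 smallest p-values and 2 highest means, per marker list the 2 highest means, and for Hlf and Meis1 the 3 nearest profiles; Cdh5, Procr, Gm16140 and Nfix were added after their values were seen, and 1 gene that the rule names is not reported here. Alternatives were DESeq2 1.42.0, limma-voom (limma 3.58.1), other scalings and filters, no block, a threshold of 0.1, and leaving out pairs or libraries.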

Additional observations from a re-analysis of the deposited data

How the results depend on the processing

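The number of genes past an adjusted p of 0.05, 2 in edgeR with the replicate block, was 0 with no replicate block, where 417 had an unadjusted p under 0.05, and 0 using unscaled totals, where 595 did. It was 11 with DESeq2, 7 with DESeq2 size factors, 80 with no filter, 13 with a mean of at least 10 counts and 7 at a threshold of 0.1; leaving out a pair gave 2 to 41. None of the 10 core factors had an adjusted p under 0.05 in any of these fits; the lowest was 0.0986, for Hlf with no filter. The count of core factors below 0.05 unadjusted, 2 with the block, was 1 with no replicate block (2.82% of all genes), 3 with no filter (5.06%), 2 with DESeq2 (4.41%) and limma-voom (5.47%), and ranged from 0 without pair 2 (3.49%) to 4 without pair 3 (6.03%). Without pair 1 it was 2 (8.06%), with Tal1 in place of Meis1. The cause was not tested.

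Of 160 alternative values of single factors, 150 kept their direction and 10 did not. When a pair, or without the block a single library, was left out, the log2 fold change ranged from -1.14 to 0.021 for Mecom, -0.39 to 0.27 for Gata2, -0.22 to 0.22 for Fli1 and -0.077 to 0.097 for Lyl1, which was also below 0, at -0.0049, with unscaled library totals. Hlf ranged from -1.27 to -0.33, Meis1 from -0.96 to -0.32, Tal1 from -0.76 to -0.36, Lmo2 from -0.42 to -0.06, Runx1 from -0.68 to -0.03 and Erg from -0.67 to -0.46. Under the block, leaving out a library removes its pair. With 1 library of a population gone, the other libraries supply the spread. For Erg and Tal1, at 155 to 290 reads per library, counting error is larger than for the other factors.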
